A study of Arabidopsis thaliana with 12 samples.

Results

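WRKY6 (AT1G62300, chromosome 1), WRKY47 (AT4G01720, chromosome 4) and WRKY53 (AT4G23810, chromosome 4) are 3 of the 13286 genes that could be named on the 12 Affymetrix arrays, and each was read by 1 probe set. They were chosen by their measured log2 difference between scrm-D and wild-type seedlings, in which all 3 read higher in scrm-D, so every comparison that uses the scrm-D or WT arrays is given for them as a description without a test. The arrays measured total RNA of whole Arabidopsis thaliana seedlings (Col-0 background, 5 days old), and each of 4 genotypes had 3 biological replicates, numbered 2, 3 and 4. All seedlings were kept for 2 days at 4 °C and then grown at 21 °C under 18 h of light and 6 h of darkness. The genotypes were wild type (WT), spch, scrm-D and the double mutant of scrm-D and mute, so both scrm-D genotypes carry the scrm-D allele, and the labels do not name the spch and mute alleles. SPCH and MUTE are transcription factors that start the stomatal lineage and end its self-renewing stage, and SCRM, altered in the dominant scrm-D line, is the protein they pair with. According to the labels the epidermis was pavement cells alone in spch, guard cells in scrm-D and almost entirely meristemoids, the self-renewing precursors, in the double mutant.

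WRKY proteins are plant transcription factors that bind the W-box, a short DNA element found in many promoters of defence and senescence genes, among them promoters of WRKY genes themselves. WRKY53 is known as an early promoter of leaf senescence whose transcript also responds quickly to stress. WRKY6 acts in senescence and defence and represses the phosphate exporter gene PHO1, and WRKY47 belongs to the same subgroup of the family as WRKY6.

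Markers and controls of the series were checked first. SPCH read 5.11 to 5.41 on the log2 scale on the spch arrays and 6.15 to 6.71 on the WT arrays, MUTE read 10.61 to 11.00 on the double mutant arrays, and the guard cell factor gene FAMA read 9.41 to 9.63 in scrm-D against 5.64 to 6.10 in the double mutant. Where the lesions lie relative to the probe sets was not known, so SPCH and MUTE say nothing firm about a label. The spch arrays were not alike in guard cell genes. GC1 (AT1G22690) read 9.70, 9.64 and 4.31 on spch replicates 2, 3 and 4, against 10.38 to 10.86 in WT. FAMA read 6.36, 6.12 and 5.64 on the same spch arrays, and AT4G14480, of the guard cell list, read 6.10, 5.83 and 4.45. The cause was not tested. Each genotype had a bacterial control transcript of its own (dap in WT, lys in spch, phe in scrm-D and trpn in the double mutant), which read at least 12.0 on its 3 arrays and at most 6.61 elsewhere, so genotype and any batch of labelling that those controls mark cannot be told apart. The thr control read high on no array. Its 3.72 to 5.14 serves below as a measure of low signal, since the deposited values carry no detection calls. It is no upper bound, as the highest phe probe set read 5.41 to 6.61 on the arrays outside scrm-D. With 3 arrays a genotype the precision is limited, and since the labels call the replicates biological without describing separate sowings, the tests reflect the spread among these arrays alone.

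WRKY6 was high on every array with the scrm-D allele and lower on every array without it. It read 7.11, 6.79 and 6.99 (replicates 2, 3 and 4) in WT and 7.03, 6.45 and 7.57 in spch. In scrm-D it read 9.13, 8.89 and 9.08, and in the double mutant 9.54, 9.19 and 9.38. The lowest of the 6 arrays with the allele (8.89) thus lay above the highest of the 6 without it (7.57). The order of the means was WT (6.96 ± 0.16, SD, n = 3), spch (7.02 ± 0.56), scrm-D (9.04 ± 0.12) and the double mutant (9.37 ± 0.18), and WT and spch differed by less than the SD of either group.

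WRKY47 had the same split at a smaller size. It read 6.38, 5.44 and 6.25 in WT, where replicate 3 was the lowest of all 12 arrays, and 6.29, 6.33 and 6.42 in spch. The scrm-D arrays read 7.65, 7.0 and 7.86 and those of the double mutant 7.03, 7.22 and 7.73. The lowest array with the allele (7.0) again lay above the highest without it (6.42). The order of the means was WT (6.02 ± 0.51), spch (6.34 ± 0.07), the double mutant (7.33 ± 0.36) and scrm-D (7.50 ± 0.45), with neighbours within a pair closer than the larger of their SDs.

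WRKY53 was the most variable of the 3. It read 5.97, 4.94 and 5.70 in WT and 4.87, 5.25 and 5.48 in spch, so that WT replicate 3 and spch replicate 2 lay within the range of the thr control. It read 6.85, 6.22 and 7.70 in scrm-D and 6.29, 6.39 and 7.28 in the double mutant. The gap between the lowest array with the allele (6.22) and the highest without it (5.97) was narrow. The order of the means was spch (5.20 ± 0.31), WT (5.54 ± 0.53), the double mutant (6.65 ± 0.55) and scrm-D (6.92 ± 0.74), and again neighbours within a pair differed by less than the larger of their SDs. Of all 22746 probe sets, 996 (4.38%) had all 6 arrays with the allele above all 6 without it, a share to be read with the fact that the scrm-D and WT arrays entered the choice of these genes.

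**Figure D1:**
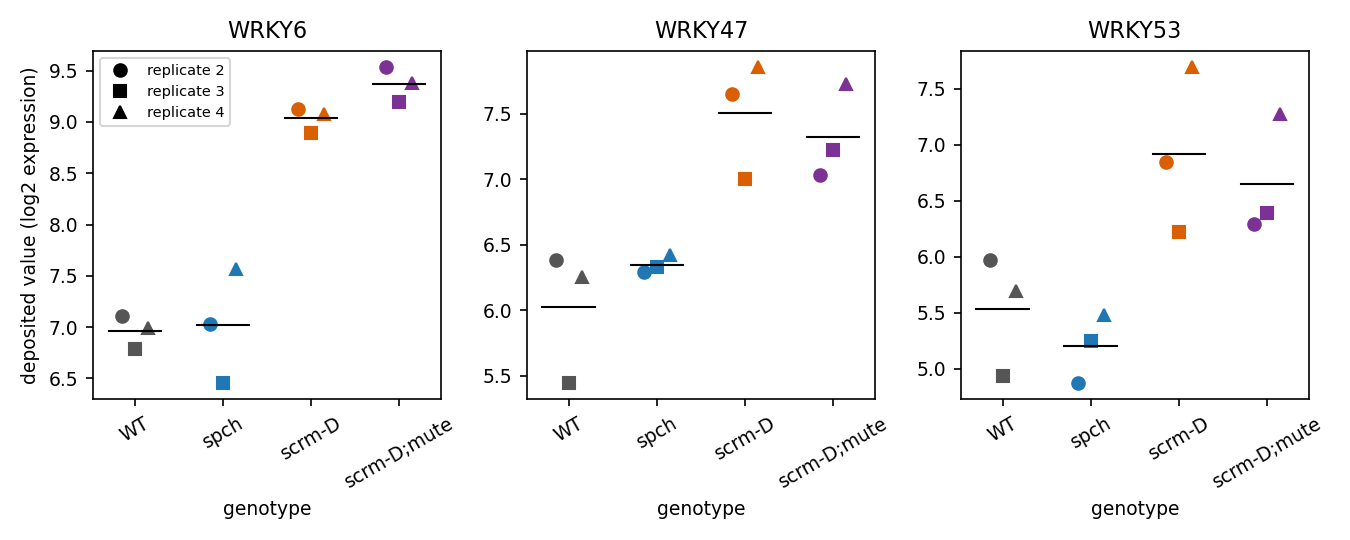
Deposited log2 expression of WRKY6, WRKY47 and WRKY53 on each of the 12 arrays, by genotype. Each point is 1 array, its shape gives the replicate number and the bar is the mean of 3 arrays. In each panel the 6 arrays with the scrm-D allele lie above the 6 without it, by the widest margin for WRKY6 (8.89 against 7.57) and the narrowest for WRKY53 (6.22 against 5.97).

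The contrast used to choose the genes is described first. Relative to WT, WRKY6 in scrm-D was higher by 4.2-fold (log2 difference 2.07 ± 0.22, SE), WRKY47 2.79-fold (1.48 ± 0.27) and WRKY53 2.62-fold (1.39 ± 0.37). For none of them did the groups overlap, as was so for 14.5% of all probe sets in the upward direction, and limma called 6.76% higher. Taken by replicate number, the difference of WRKY6 was nearly constant, at 2.02, 2.10 and 2.09. That of WRKY47 was 1.27, 1.56 and 1.61, and that of WRKY53 ran from 0.88 through 1.28 to 2.00 for replicates 2, 3 and 4. In whole seedlings, more cells that express a gene and more of its RNA per cell cannot be told apart.

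The log2 difference used for the choice did not include the double mutant and spch arrays. The choice was still made with earlier results of these data known, so the tests below are not free of it. Between the double mutant and spch all 3 genes differed. WRKY6 was 5.10-fold higher in the double mutant (log2 difference 2.35 ± 0.22, SE, limma adjusted p = 5.68e-06), WRKY53 2.73-fold (1.45 ± 0.37, limma adjusted p = 0.00903) and WRKY47 1.97-fold (0.98 ± 0.27, limma adjusted p = 0.0121). Every double mutant array lay above every spch array for each of them, as for 22% of all probe sets. Limma called 17.2% of all probe sets higher in this comparison, and 33.2% in either direction, so a call here is common. The double mutant carries the scrm-D allele, as does the genotype that chose the genes. The share called among probe sets already high in scrm-D would be the closer background, and it was not counted. The spread behind each SE was pooled over all genotypes, WT and scrm-D included. Without replicate 4 of the double mutant the difference of WRKY47 was 0.78 and its limma adjusted p 0.0531, while WRKY6 and WRKY53 stayed past the threshold in all 19 alternative settings (limma adjusted p up to 0.000376 and 0.0404).

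Against WT, whose arrays entered the choice, the double mutant is described without a test. WRKY6 was 5.30-fold higher in the double mutant (2.40 ± 0.22, SE), WRKY47 2.47-fold (1.30 ± 0.27) and WRKY53 2.17-fold (1.12 ± 0.37). The groups did not overlap for any of the 3. In this comparison 14.1% of all probe sets were called higher and 21.2% had all double mutant arrays above all WT arrays. The difference of WRKY53 was 0.82 without WT replicate 3 and 0.80 without double mutant replicate 4.

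The spch arrays are set against the same WT arrays, again without a test. WRKY6 differed by 0.05 (95% interval −0.42 to 0.53), WRKY47 by 0.32 (−0.25 to 0.90) and WRKY53 by −0.33 (−1.14 to 0.47), and the groups overlapped for each. Limma called 19.5% of all probe sets in either direction. The intervals are wide, so equal levels are not shown. WRKY6 spread most in spch, where replicate 4 read 7.57 and replicate 3 read 6.45.

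The genotypes that carry the allele are compared without a test because the scrm-D arrays chose the genes. The double mutant minus scrm-D difference was 0.33 for WRKY6 (95% interval −0.15 to 0.81), −0.18 for WRKY47 (−0.75 to 0.40) and −0.27 for WRKY53 (−1.08 to 0.54). The WRKY6 arrays of the pair did not overlap, by 9.19 against 9.13, as was so for 15.5% of probe sets in that direction. Taken by replicate number, which the values of these genotypes pair, WRKY6 was higher in the double mutant by 0.41, 0.29 and 0.30, and the blocked fit gave 0.33 ± 0.17 (SE). The differences of WRKY47 (−0.62, 0.22 and −0.13) and WRKY53 (−0.57, 0.17 and −0.42) had no single sign. Over the same arrays FAMA, which drives the last step of guard cell formation, was 12.7-fold lower in the double mutant than in scrm-D (limma adjusted p = 5.88e-08), and AT4G14480, a further gene of the guard cell list, was 15.3-fold lower (limma adjusted p = 5.49e-06). A total of 5.94% of probe sets were called lower in this comparison. As point estimates the WRKY differences between these genotypes were at most 0.33 in size, with intervals that reached −1.08 and 0.81. FAMA differed by −3.66 and AT4G14480 by −3.94. The part of guard cell number in the WRKY values was not tested.

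**Figure D2:**
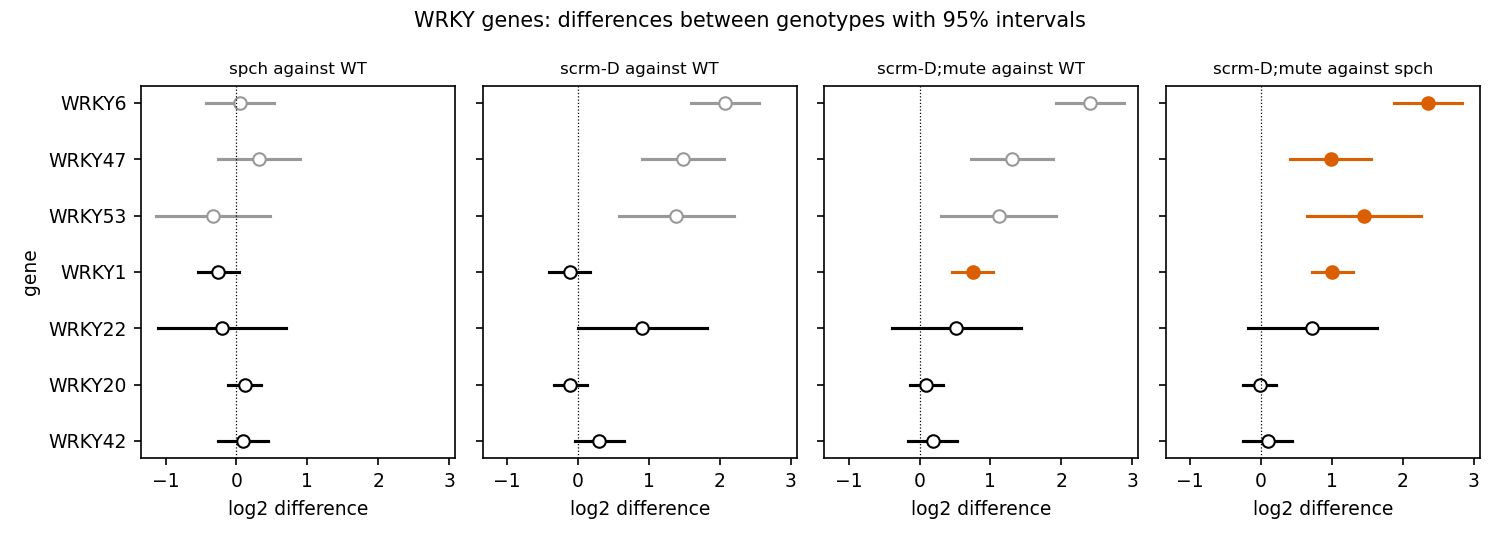
Log2 differences of the 7 measured WRKY genes in 4 comparisons, each with its 95% interval from the limma fit. Filled orange points passed the test, open black points did not, and grey points were not tested because arrays of that contrast chose the genes. WRKY6, WRKY47 and WRKY53 have intervals that include 0 for spch against WT and lie to the right of 0 in the other panels, and WRKY1 was called in the panels of the double mutant.

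The family holds many more members, of which 72 were listed and 7 could be named on the arrays, so most WRKY genes were not analysed here. Of the other 4, none passed the test in scrm-D against WT, where 14.2% of all probe sets were called, and their median difference was 0.10 against −0.01 over all probe sets. In the double mutant 1 of the 4 rose, against both WT and spch, where 14.1% and 17.2% of all probe sets were called higher, so that 1 of 4 is near the background.

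That gene was WRKY1 (AT2G04880, also called ZAP1), a family member with a pair of WRKY domains. It read 8.97, 8.69 and 8.96 in WT, 8.59, 8.51 and 8.76 in spch, 8.96, 8.66 and 8.65 in scrm-D, and 9.75, 9.69 and 9.43 in the double mutant. All double mutant arrays lay above the other 9, a pattern whose share over all probe sets was not counted. Taken singly, all double mutant arrays lay above those of WT for 21.2% of probe sets, of spch for 22% and of scrm-D for 15.5%. WRKY1 was 1.68-fold over WT, 2.00-fold over spch and 1.82-fold over scrm-D (limma adjusted p = 0.00125, 9.59e-05 and 0.000922), the last in a comparison where 7.45% of all probe sets were called higher. Against WT it differed in scrm-D by −0.12 ± 0.13 (limma adjusted p = 0.662).

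WRKY22 (AT4G01250), which acts in immune signalling below a MAP kinase cascade, read 7.06, 5.46 and 6.46 in WT, 5.91, 5.55 and 6.90 in spch, 7.13, 6.76 and 7.81 in scrm-D, and 6.78, 6.50 and 7.25 in the double mutant. Replicate 3 was low throughout and the groups overlapped. Its difference was 0.91 ± 0.42 (SE) in scrm-D against WT and 0.72 ± 0.42 in the double mutant against spch, with limma adjusted p = 0.190 and 0.223. A blocked fit on replicate number turned both into calls, at limma adjusted p = 0.0278 and 0.0419.

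WRKY42 (AT4G04450), a close relative of WRKY6 that also represses PHO1, read between 4.08 and 4.78 over all 12 arrays, within the range of the thr control. It differed by at most 0.30 in the 6 comparisons and no comparison passed the test. WRKY20 (AT4G26640) read between 8.11 and 8.53 and differed by −0.22 to 0.21, also without a call.

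Arrays of one replicate number moved together for several of these genes. WRKY6 and WRKY22 were lowest on replicate 3 in all 4 genotypes, as were 2.35% of all probe sets. WRKY47, WRKY53 and WRKY22 were highest on replicate 4 in 3 of the 4 genotypes, the exception being WT, and 17.1% of all probe sets were highest on replicate 4 in at least 3 genotypes. On scrm-D replicate 4 WRKY53 stood 0.77 above its genotype mean, and on scrm-D replicate 3 it stood 0.70 below. The labels do not say what a replicate number marks.

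**Figure D3:**
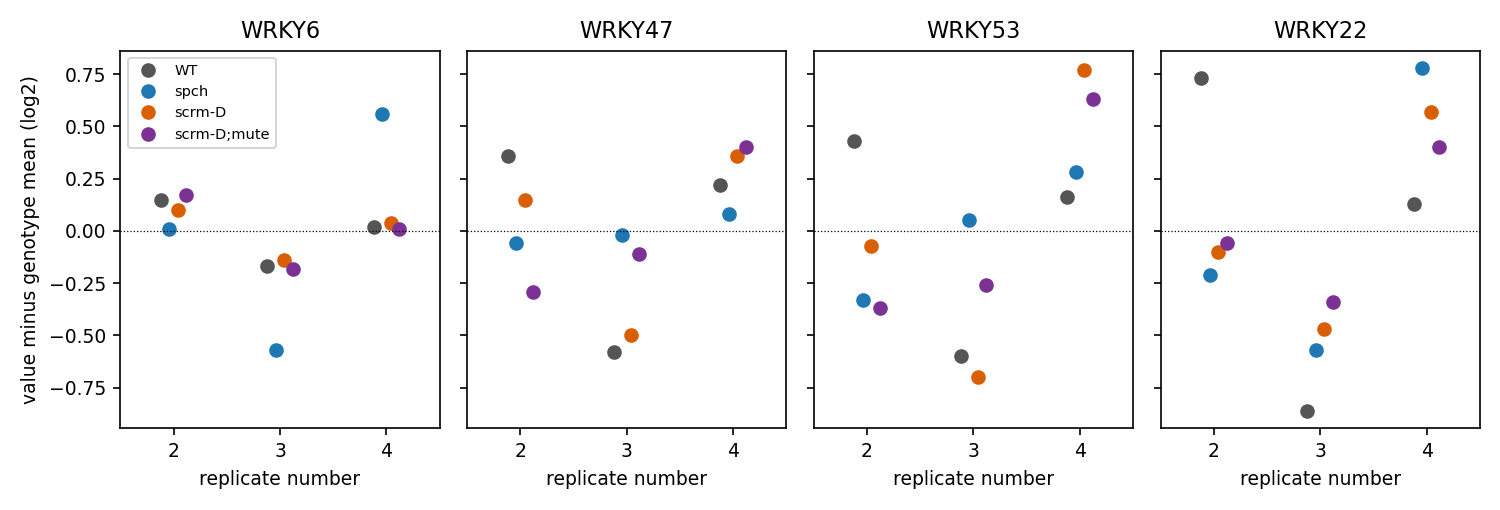
Deviation of each array from its genotype mean (log2) for WRKY6, WRKY47, WRKY53 and WRKY22, by replicate number, with 1 point per array coloured by genotype. Points of replicate 3 lie below 0 in all 4 genotypes for WRKY6 and WRKY22, and those of replicate 4 lie above 0 for WRKY47, WRKY53 and WRKY22.

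Technical readings varied along with genotype. The 25S rRNA control read 6.56 to 7.50 in WT, 8.66 to 11.04 in spch, 8.98 to 10.07 in scrm-D and 10.84, 11.06 and 6.96 in the double mutant. Replicate 4 of the double mutant, with 6.96, read 9.38, 7.73 and 7.28 for WRKY6, WRKY47 and WRKY53. On that same array the phe control, the mark of scrm-D, averaged 5.15 over 6 probe sets against 4.2 and 4.15 on the other double mutant arrays. FAMA on that array read 5.94, within the range of the other double mutant arrays. The differences without that array are 0.78 for WRKY47 in the double mutant against spch and 0.80 for WRKY53 against WT. The mean 25S value was 9.63 in spch and 9.62 in the double mutant, so a 25S covariate could hardly move that contrast (2.35, 0.98 and 1.45 for WRKY6, WRKY47 and WRKY53 with it). WT averaged 7.11, and with the covariate the double mutant against WT differences moved from 2.40 to 2.25, from 1.30 to 1.63 and from 1.12 to 1.56. The part of RNA quality in the WRKY values was not tested.

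Defence and senescence genes, among which WRKY targets are known, were thinly covered. The 8 lists chosen around the family held 7 genes that could be measured outside it, and none of the 13 genes listed as acting on or below these factors (among them PHO1, FRK1 and SAG12), nor any of the 12 of phosphate supply, was analysed here. Of the 7, 3 rose and 1 fell in scrm-D against WT, 2 rose and 1 fell in the double mutant against WT, and 1 rose and 1 fell in the double mutant against spch. Over all probe sets 6.76% were called higher and 7.39% lower in the first comparison, 14.1% and 13.6% in the second, and 17.2% and 16.1% in the third, so that the counts in the third are near the background.

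Both measured genes of the 20 listed for pattern-triggered immunity rose in scrm-D and in the double mutant against WT, with a median of 0.88 in scrm-D against −0.01 over all probe sets, of which 6.76% were called higher in scrm-D and 14.1% in the double mutant. BIK1 (AT2G39660), a cytoplasmic kinase that passes on signals from immune receptors, read 8.56, 8.23 and 8.51 in WT, 9.02, 8.83 and 9.40 in spch, 9.41, 9.37 and 9.79 in scrm-D and 9.60, 9.36 and 10.11 in the double mutant. Over WT it was higher by 2.13-fold in scrm-D and by 2.39-fold in the double mutant (limma adjusted p = 0.00310 and 0.000582). It was also called in spch, 1.57-fold over WT (limma adjusted p = 0.0394), where 9.6% of all probe sets were called higher. It was 1.53-fold higher in the double mutant than in spch (limma adjusted p = 0.0331), a call that ended without any 1 of spch replicates 2 and 3 and double mutant replicates 2 and 4. EFR (AT5G20480), the receptor for a bacterial elongation factor, was raised 1.58-fold in scrm-D and 1.39-fold in the double mutant over WT (limma adjusted p = 0.00840 and 0.0262), with WT at 4.63 to 4.74, inside the range of the thr control. The EFR call in the double mutant ended in 5 of 12 settings that leave out 1 array (any WT array, or double mutant replicate 2 or 4), and with the 25S covariate both EFR calls ended (limma adjusted p = 0.0620 and 0.150).

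The other lists had 1 or 2 measured genes each. PDF1.2 (AT5G44420), a defensin gene of the jasmonate and ethylene pathway, exceeded WT by 4.85-fold in scrm-D (limma adjusted p = 0.00202) but 7.59-fold lower in the double mutant than in scrm-D (limma adjusted p = 0.000299). ZAT10 (AT1G27730), a zinc finger repressor gene known for fast induction by stress, was 5.20-fold lower in the double mutant than in spch (limma adjusted p = 0.00734), where 16.1% of all probe sets were called lower. Its WT arrays spread widely, at 9.22, 6.14 and 8.21. Against WT it differed in the double mutant by −1.22 (limma adjusted p = 0.151), and by −2.08 without WT replicate 3 (limma adjusted p = 0.0027). SAG29 (AT5G13170), a sugar transporter gene that rises in senescing leaves, fell by 1.10 in scrm-D, by 1.30 in the double mutant and by 1.14 in spch against WT (limma adjusted p = 0.0297, 0.00680 and 0.0192), comparisons in which 7.39%, 13.6% and 9.93% of all probe sets were called lower. Its call in scrm-D ended when WT replicate 2 or 3 or scrm-D replicate 3 or 4 was left out, and with the 25S covariate. SAG101 (AT5G14930), whose product works with EDS1 in immunity, differed by −0.10 to 0.13 over the 3 plotted contrasts (either scrm-D genotype with WT, and double mutant with spch), and GRX480 (AT1G28480), a glutaredoxin gene of the salicylic acid response, by −0.23 to 0.38, all without a call. In scrm-D against WT the 25S covariate moved SAG101 to 0.67 (limma adjusted p = 0.0456), and GRX480 stood at 0.68 without scrm-D replicate 3 (limma adjusted p = 0.0304).

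**Figure D4:**
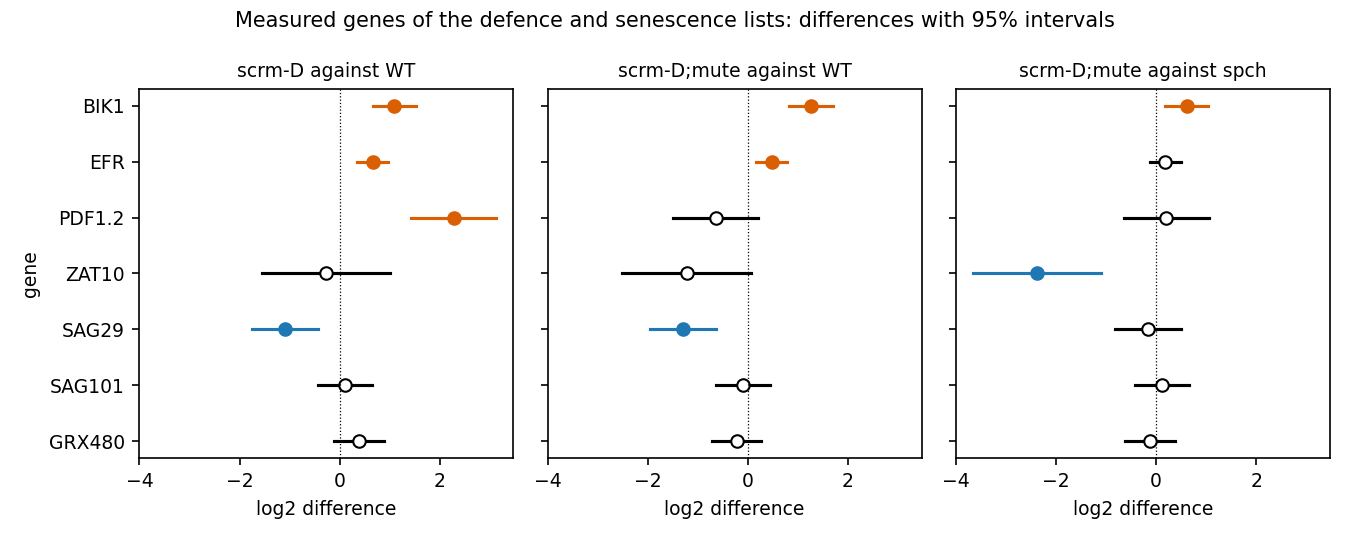
Log2 differences of the 7 measured genes of the defence and senescence lists in 3 comparisons, with 95% intervals from the limma fit. Orange points were called higher, blue points lower, and open points did not pass. BIK1 was called higher in all 3 panels and PDF1.2 in scrm-D against WT, and ZAT10 lies left of 0 in the double mutant against spch, at −2.38.

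Markers of other cell types moved in the same contrasts. In scrm-D against WT 2 of the 3 measured guard cell genes rose and 3 of the 6 measured mesophyll and photosynthesis genes fell, among them PRK (AT1G32060) by 0.93 and SBPASE (AT3G55800) by 0.91, both enzymes of the Calvin cycle, where 6.76% of all probe sets were called higher and 7.39% lower. Both measured genes of the stomatal lineage list, SPCH and MUTE, rose in scrm-D and in the double mutant against WT and in the double mutant against spch. In the double mutant against spch none of the 3 guard cell genes passed, 5 of the 6 mesophyll and photosynthesis genes fell and 1 of the 2 root genes rose, where 16.1% of all probe sets were called lower and 17.2% higher. The mean log2 level of the 6 mesophyll and photosynthesis genes lay at 12.43 to 12.49 in WT, 12.06 to 12.46 in spch, 11.4 to 11.89 in scrm-D and 11.36 to 11.67 in the double mutant. That of the 3 guard cell genes was 7.88 to 8.18, 4.8 to 7.39, 10.62 to 10.9 and 6.31 to 7.10 in the same order, and that of the 2 root genes 6.06 to 6.63, 4.96 to 5.14, 6.23 to 6.77 and 5.74 to 6.21. That of the 2 stomatal lineage genes was 5.29 to 5.60, 4.73 to 4.78, 6.85 to 7.88 and 10.64 to 10.94. The mean of SPCH and MUTE was thus higher and the mesophyll level lower on all 6 arrays with the allele. Of single probe sets, 4.38% had all 6 arrays with the allele above all 6 without it. The share with all 6 below was not counted, nor was a share for means of several genes. SPCH and MUTE are themselves the genes mutated in spch and in the double mutant, so their mean says nothing firm about cell types. The root level was lowest in spch, and the guard cell level was high in scrm-D but not in the double mutant. Listed vascular and epidermis markers were not analysed here. The part of such shifts in tissue makeup in the WRKY values was not tested.

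Of 1998 named probe sets whose genotype means spanned at least 1 log2 unit, those with the profiles most like each WRKY gene over the 12 arrays were found by Pearson's r, as a description of arrays that share genotypes. WRKY47 and WRKY53 resembled each other (r = 0.934 over 12 arrays, ranks 6 and 8 in each other's order), and each resembled WRKY6 less (r = 0.871 and 0.825). AT1G51890 and AT5G38780 were among the 5 closest genes of both WRKY47 and WRKY53. AT1G51890 had r = 0.961 with WRKY53 and means of 5.32 in WT, 5.35 in spch, 6.78 in scrm-D and 6.53 in the double mutant. The closest gene of WRKY47 was GLR2.7 (AT2G29120), a glutamate receptor-like channel gene, with r = 0.951 and means of 4.75, 5.33, 7.26 and 7.15 in WT, spch, scrm-D and the double mutant.

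WRKY6 had other companions. Its closest gene was AT2G30990 (r = 0.965), with means of 6.78, 6.69, 7.62 and 8.07 in the same order of genotypes, followed by EXPA16 (AT3G55500, r = 0.959), an expansin gene whose product loosens cell walls and whose means were 5.40, 4.60, 10.29 and 11.97. Of its 5 closest genes 4 had their highest mean in the double mutant, as WRKY6 did, the exception being AT2G43620. All 5 genes closest to WRKY47 and all 5 closest to WRKY53 had their highest mean in scrm-D. These genes were picked by likeness over the same arrays, so a shared highest genotype follows largely from the way of picking. By Spearman's rho 1 of the 5 genes closest to WRKY6 remained among its leading 5, against 3 for WRKY47 and 2 for WRKY53.

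**Figure D5:**
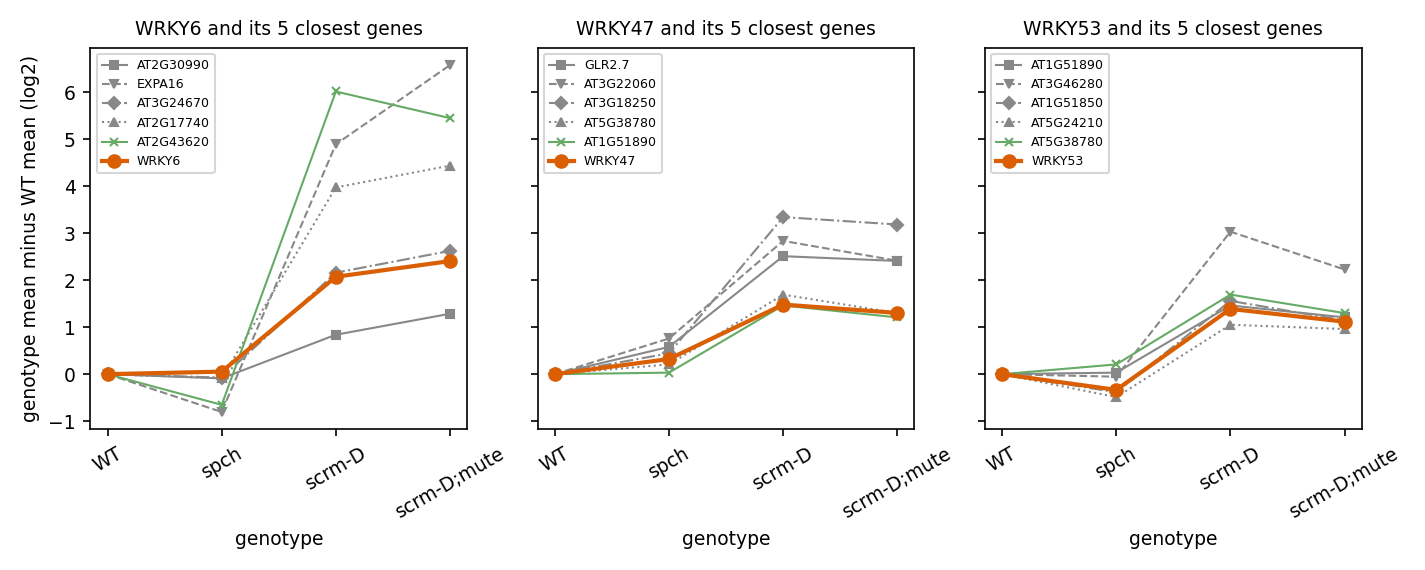
Genotype means minus the WT mean (log2) for each of the 3 WRKY genes (thick orange line) and its 5 closest genes by Pearson's r over 12 arrays. The lines join the 4 genotypes only to guide the eye. The companions of WRKY6 include genes of far larger rise, such as EXPA16 from 5.40 in WT to 11.97 in the double mutant, and those of WRKY47 and WRKY53 are highest in scrm-D.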

How the data were processed

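The deposited log2 expression values, 1 per probe set and array, were normalized by the authors. Per the submitters' processing notes RMA and limma were used, with versions not given in the sources used here. RNA was primed with oligo-dT and amplified by in vitro transcription per the labels' protocols. Groups were taken from titles and genotype fields. For scrm-D, titles and genotypes were followed although the descriptions point to the double mutant. No 2 arrays were copies (at most 5 identical values of 22810).

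The 64 control probe sets were left out, and the 22746 others went into a single limma fit (version 3.58.1, R 4.3.3) of the 12 arrays by genotype, moderated by default (prior degrees of freedom 4.41). A call needed a two-sided p under 0.05 after adjustment by Benjamini-Hochberg across the probe sets of the comparison. The fit was tested on simulated data. The platform annotation pairs 13513 probe sets with 1 gene, of which 13436 matched a locus of TAIR10.1, used for names and chromosomes only. Of a gene with several probe sets the one with the highest mean was used. The genes named are the 3 WRKY genes, other measured WRKY genes, up to 4 called genes of each list, and the 5 closest genes of each of the 3. WRKY20, WRKY22, WRKY42, SAG101 and GRX480, which had no call, were given with values after these were seen. Tests of the 3 WRKY genes against WT had been planned, and their p-values are not given because the WT arrays entered the choice. The members and lists were chosen with earlier results of these data known. The 14 lists held 218 genes, of which 24 besides the 3 were measured.

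Deviations from genotype means were correlated between arrays of the same number. The lowest correlation of a pair was 0.138 for spch with WT, 0.103 for scrm-D with WT, 0.110 between double mutant and spch and 0.215 between double mutant and scrm-D, all over the limit of 0.1, which counts as pairing from the values alone. It was 0.0826 for the double mutant with WT and 0.0338 for scrm-D with spch, which does not. Alternatives left out each array, added the replicate number as a block or the 25S rRNA value as a covariate, fitted 2 genotypes alone, filtered on a mean of 5, renormalized, or changed the moderation.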

Additional observations from a re-analysis of the deposited data

How the results depend on the processing

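For WRKY6, WRKY47 and WRKY53, the counts of called probe sets and the counts of called list genes, 544 of 570 alternative values kept direction and side of the threshold or stayed within the allowed range. Part of this was fixed in advance, since leaving out an array of a genotype outside a comparison cannot move its difference. The 570 also include the comparisons of the 3 genes with WT that are given without a test. Leaving out 1 array at a time gave −0.22 to 0.34 for WRKY6 in spch against WT, 0.78 to 1.13 for WRKY47 in the double mutant against spch, 0.80 to 1.33 for WRKY53 in the double mutant against WT, and −0.43 to 0.0015 and −0.62 to 0.11 for WRKY47 and WRKY53 in the double mutant against scrm-D. With the 25S rRNA value as a covariate WRKY6 gave −0.10 in spch against WT and 1.92 in scrm-D against WT, and WRKY53 gave 0.12 in spch against WT. Moderation with an intensity trend cannot move a difference. For WRKY53 in the double mutant against WT (1.12) it gave an SE of 0.39, against 0.37 in the main fit. The replicate number as a block changed no call of the 3 genes in the double mutant against spch (WRKY53: 1.45 ± 0.26, limma adjusted p = 0.00102), and of the other genes reported with it only WRKY22 gained calls, at 0.91 and 0.72.

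Over all probe sets, without 1 array 2955 to 4596 were called in spch against WT (2955 without spch replicate 4, main 4442), 2127 to 3496 in scrm-D against WT (2127 without scrm-D replicate 4, main 3220) and 1962 to 3333 in the double mutant against scrm-D (1968 and 1962 without double mutant replicates 2 and 3, main 3046). The 25S covariate left 2108 in spch against WT and 3736 of 6297 in the double mutant against WT. Of the list genes 4 to 8 were called in spch against WT without 1 array and 3 with that covariate. The causes were not tested.

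Genes without a call changed sign around 0 without 1 array: WRKY20 (−0.073 to 0.014), WRKY42 (−0.10 to 0.25), SAG29 (−0.43 to 0.14), SAG101 (−0.23 to 0.31) and PDF1.2 (−0.048 to 0.44) in the double mutant against spch, SAG101 (−0.45 to 0.080) in the double mutant against WT, and SAG101 (−0.069 to 0.20) and ZAT10 (−1.14 to 0.41) in scrm-D against WT. SAG101 in the double mutant against WT was 0.47 with the 25S covariate, and WRKY42 in the double mutant against spch was −0.0053 after centring on the array median. EFR in scrm-D against WT gave limma adjusted p = 0.0620 with the covariate. By the thr control, low signal limits WRKY42, SAG101, EFR and the lowest arrays of WRKY53. The highest phe probe set read up to 6.61 outside scrm-D. By that measure low signal could also limit all WT and spch arrays of WRKY47 (up to 6.42) and WRKY53 (up to 5.97). The same holds for the lowest WRKY53 array with the allele (6.22).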

Other observations

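The genes next to the 3 WRKY genes on the chromosome, chosen after the data were seen, are given as values. WRKY53 lies beside 3xHMG-box2 (AT4G23800), which encodes a chromatin protein and differed by 0.30 in scrm-D against WT (limma adjusted p = 0.496) but by 2.88 in the double mutant against spch (limma adjusted p = 1.83e-06). On the other side AT4G23820 fell by 0.62 in scrm-D against WT (limma adjusted p = 0.00545) and by 0.39 in the double mutant against spch (limma adjusted p = 0.0313). WRKY47 lies between CRK (AT4G01710, also called CROOKED), which encodes a subunit of an actin-nucleating complex and differed by 0.01 in scrm-D against WT and by 0.67 in the double mutant against spch (limma adjusted p = 0.00267), and AT4G01730, which differed by 0.21 there and by 2.61 in the double mutant against spch (limma adjusted p = 3.24e-07). Beside WRKY6, AT1G62290 differed by 0.46 in scrm-D against WT (limma adjusted p = 0.216) and rose by 1.00 in the double mutant against spch (limma adjusted p = 0.00362). The nearest measured gene on the other side, AT1G62310, lay 5 genes away. It differed by −0.14 in scrm-D against WT (limma adjusted p = 0.556) and by 0.01 in the double mutant against spch (limma adjusted p = 0.959). Over all probe sets 17.2% were called higher and 16.1% lower in the double mutant against spch.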
